A study of Mus musculus with 9 samples.

Results

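Chemokines and the receptors that recruit leukocytes were examined in the retina of mice with oxygen-induced retinopathy (OIR), a model in which pups are kept in high oxygen and then returned to room air, after which the poorly perfused retina becomes hypoxic and grows abnormal vessels. The 9 genes were taken by name from a count table of 54532 genes. They are the ligands Ccl2, Ccl3, Ccl4, Ccl12, Cx3cl1, Cxcl10 and Cxcl12 and the receptors Ccr2 and Cxcr4. RNA was sequenced from the retina of 9 wild-type C57BL/6 mice at postnatal day 17 (P17), with 3 mice in each of 3 groups. Control mice had no OIR and carry DMSO, the vehicle, in their labels. OIR mice received a single intraocular injection of DMSO at P12. The OIR+32-134D mice received instead 32-134D, which inhibits both HIF-1 and HIF-2, the transcription factors that switch on genes in hypoxia, at a dose that the labels give as 70 ng in one place and as 70 ng/µl in another. The comparison of OIR with control addresses what ischemic retinopathy does to these genes, and the comparisons with OIR+32-134D address what is measured after HIF inhibition.

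Chemokines are small secreted or membrane-anchored proteins that bind G protein-coupled receptors on leukocytes and steer them along a gradient. In the retina, neurons and glia supply ligands, and microglia, the resident immune cells, carry several of the receptors. Ccl2 and its mouse relative Ccl12 draw monocytes through Ccr2. Ccl3 acts on Ccr1 among other receptors, Cx3cl1 (fractalkine) acts on Cx3cr1 of microglia, Cxcl12 acts on Cxcr4 of progenitor, endothelial and immune cells, and Cxcl10 is an interferon-inducible ligand of Cxcr3.

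Each mouse had 16028731 to 27213184 counts. Values are given as CPM, the count of a gene relative to the TMM-scaled total of its library, and differences as log2 fold changes with their standard errors (SE) from edgeR's quasi-likelihood test, fitted to 17540 genes over all 9 mice with Benjamini-Hochberg adjustment. A gene was called at an adjusted p under 0.05 with an absolute log2 fold change over 1. Of the 9 genes, 8 passed the filter on low counts, and Ccl4 did not. Mouse 2 of OIR+32-134D stood apart because lens crystallins took 15.8% of its counts, against at most 0.186% in any other mouse. Control mouse 1 stood apart by genes of activated macrophages, with 1675 CPM of Spp1 against 48.4 and 24.5 in control mice 6 and 7. In whole retina, fewer cells of a type and less RNA per cell cannot be told apart.

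Fractalkine made up most of the signal. Of all counts of the 9 genes over the 9 mice, Cx3cl1 held 71.3%, Cxcl12 19.8% and Cxcr4 5.43%. The totals of the other 6 genes ran from 79 counts for Ccl4 to 216 for Ccl2, so that single mice often had fewer than 20. Scaled to gene length, Cx3cl1 led every group, at 38.4 ± 5.94 CPM per kilobase in control, 13.2 ± 3.74 in OIR and 19.2 ± 10.7 in OIR+32-134D mice (SD, n = 3). The next places differed between the groups. In control mice the ligand Cxcl12 (4.55 ± 0.43 CPM per kilobase, SD, n = 3) lay above its receptor Cxcr4 (2.11 ± 1.17). In OIR mice Cxcr4 (4.81 ± 1.53) lay above Cxcl12 (2.55 ± 0.68), and in OIR+32-134D mice the values were 4.98 ± 1.52 and 2.35 ± 0.19. At both of these ranks the neighbouring ranges of the 3 mice were separate, whereas from the third rank down neighbours overlapped, except that Ccr2 (0.023 ± 0.034) lay apart below Cxcl10 (0.333 ± 0.044) in control mice.

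**Figure D1:**
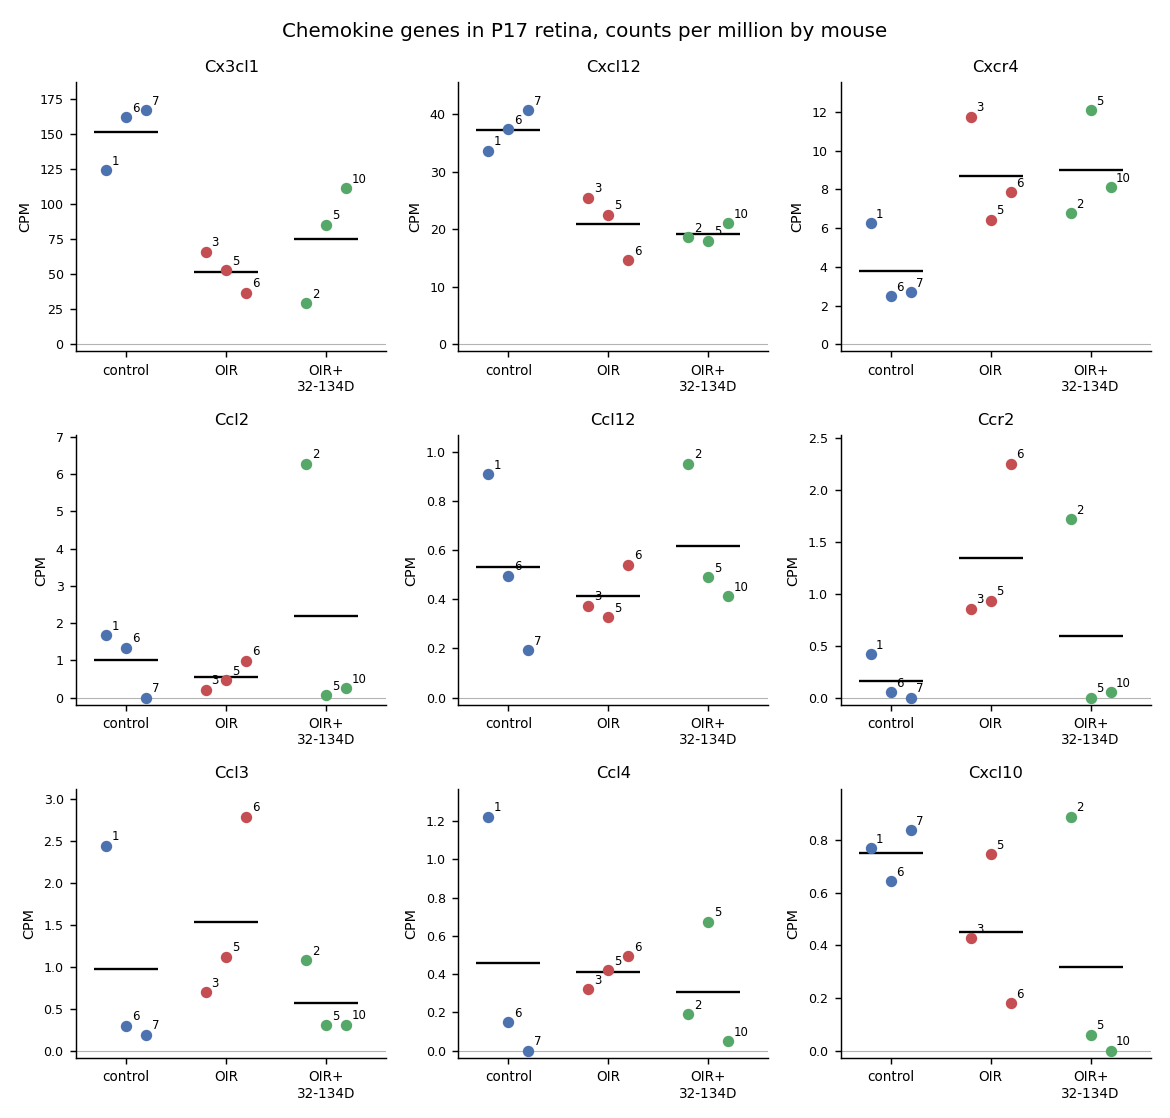
CPM of the 9 genes in each mouse, with 1 panel per gene, 1 point per mouse labelled with its number and a bar at the mean of each group of 3. Cx3cl1 and Cxcl12 lie lower and Cxcr4 higher in all 6 OIR mice than in the 3 control mice, while Ccl2 is carried by OIR+32-134D mouse 2 at 6.28 CPM.

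In OIR against control, the 2 most abundant ligands were lower and both receptors were higher in all 3 OIR mice. The log2 fold changes were -1.54 for Cx3cl1, -0.83 for Cxcl12, 1.17 for Cxcr4 and 2.87 for Ccr2. None of the 8 genes tested was called by edgeR over all 9 mice, where 0.302% of all genes were. The groups did not overlap for 4 of the 8, against 33.0% of all genes, and 3 of the 8 had an unadjusted p under 0.05, against 23.8% of all genes. Ccr2 and Ccl3 would not have passed the filter without their counts in OIR mice, nor Cxcl10 without those in control mice. A higher level there is thus no support for a difference. The groups of Ccl3 and of Cxcl10 overlapped even so. The call depended on the fit. The number of these genes called was 3 with DESeq2 on the 2 groups (Cx3cl1, Cxcr4 and Ccr2, with 5.75% of all genes), 3 with limma-voom (the same 3, with 4.69% of all genes) and 1, Cx3cl1, when OIR+32-134D mouse 2 was left out of edgeR's shared estimate of spread (with 4.97% of all genes). Leaving out control mouse 1 as well called the same 3 as limma-voom (with 6.52% of all genes), and DESeq2 on all 9 mice called Cx3cl1 and Cxcr4 (with 4.30%). Cx3cl1 alone was called without the filter on low counts (with 0.857% of all genes) and with edgeR on the 2 groups (with 4.49%).

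In OIR+32-134D against control, the same ligands were lower, with log2 fold changes of -1.0 for Cx3cl1 and -0.95 for Cxcl12, and Cxcr4 was higher, at 1.22. None of the 8 genes was called by edgeR, with 0.0171% of all genes called, and limma-voom called Cxcr4 and Cxcl10, with 1.05% of all genes. The groups did not overlap for 3 of the 8, against 25.0% of all genes, and 3 of the 8 had an unadjusted p under 0.05, against 18.6%. Both comparisons use the same control mice, so that they are not independent of each other.

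In OIR+32-134D against OIR, none of the 8 genes was called by edgeR, where 0 of 17540 genes (0.00%) were called and 823 (4.69%) had an unadjusted p under 0.05. The counts of called genes in this comparison were 58 with DESeq2 on the 2 groups (0.307%), 18 with DESeq2 on all 9 mice (0.101%) and 1 with limma-voom (0.00570%), and none of them is one of the 9 genes. The groups overlapped for all 8 genes, whereas 9.13% of all genes did not overlap. For the 3 abundant genes the 95% confidence intervals of the log2 fold change were -0.39 to 1.47 for Cx3cl1, -0.56 to 0.32 for Cxcl12 and -0.85 to 0.96 for Cxcr4.

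**Figure D2:**
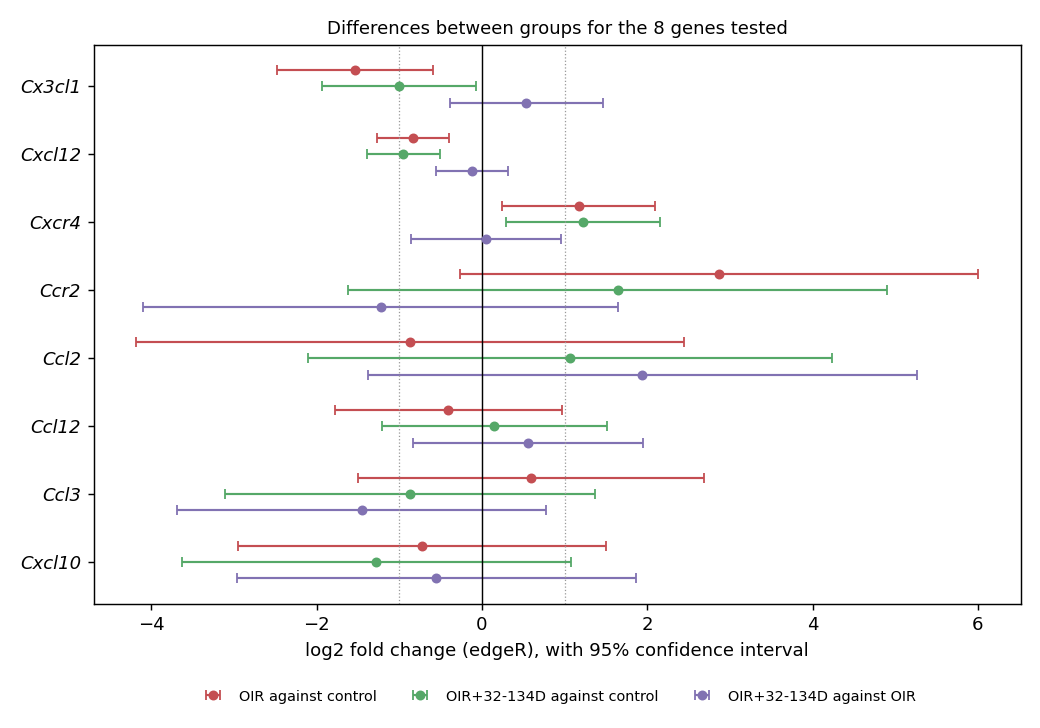
Log2 fold change of the 8 tested genes in the 3 comparisons, with points at edgeR's estimate and bars for its 95% confidence interval, and dotted lines at a log2 fold change of -1 and 1. In OIR against control the intervals of Cx3cl1, Cxcl12 and Cxcr4 leave out 0, and in OIR+32-134D against OIR every interval holds 0.

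Cx3cl1 (ENSMUSG00000031778, GRCm38 chromosome 8, 94772009 to 94782427, plus strand) encodes fractalkine, which neurons display on their membrane or shed. It had 124, 162 and 167 CPM in control mice 1, 6 and 7. The values were 66.1, 53.0 and 36.8 CPM in OIR mice 3, 5 and 6, and 29.2, 85.4 and 111 CPM in OIR+32-134D mice 2, 5 and 10. All control mice lay above all other mice. OIR+32-134D mice 5 and 10 lay between control and OIR, and mouse 2 lay below every OIR mouse. Against control, OIR was 2.91-fold lower (log2 fold change -1.54, SE 0.42, unadjusted p = 0.00494, edgeR adjusted p = 0.0874). The adjusted p was 1.09e-11 with DESeq2 on the 2 groups, 0.00927 with edgeR on the 2 groups, 0.0129 with limma-voom and 0.00456 with edgeR without OIR+32-134D mouse 2. For OIR+32-134D against control the log2 fold change was -1.0 (SE 0.41, edgeR adjusted p = 0.243), and without mouse 2 it was -0.61 (edgeR adjusted p = 0.300). For OIR+32-134D against OIR it was 0.54 (SE 0.41, edgeR adjusted p = 1.0) and 0.95 without mouse 2 (edgeR adjusted p = 0.190).

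The markers of retinal ganglion cells, the output neurons of the retina, moved with Cx3cl1. The 9 markers summed to 1443, 1564 and 2058 CPM in control mice 1, 6 and 7 and to 768, 505 and 223 CPM in OIR mice 3, 5 and 6. The sums were 133, 1185 and 1232 CPM in OIR+32-134D mice 2, 5 and 10. In each group the mouse with the lowest Cx3cl1 was also the one with the lowest sum. In OIR against control 8 of the 9 were lower without overlap (median log2 fold change -1.88, against 0.03 over all genes), where 33.0% of all genes did not overlap, and 0 were called by edgeR, with 3 at an unadjusted p under 0.05, against 23.8% of all genes. The neurofilament gene Nefl went from 547 CPM on average in control to 128 in OIR mice, and Thy1 from 394 to 81.9. Isl1, which other inner retinal neurons express too, overlapped between the groups and averaged 90.3 and 101 CPM. The part of ganglion cell number in the Cx3cl1 result was not tested.

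The receptor of fractalkine was highest in OIR mice, where fractalkine itself was lowest on average. Cx3cr1, a marker of microglia, had 25.2, 23.3 and 15.3 CPM in control mice 1, 6 and 7 and 29.7, 30.5 and 43.8 CPM in OIR mice 3, 5 and 6. OIR+32-134D mice 2, 5 and 10 had 11.7, 14.8 and 19.2 CPM. Every OIR mouse lay above every other mouse, and OIR+32-134D overlapped with control. Between OIR and control the log2 fold change was 0.70 (95% confidence interval 0.14 to 1.27, unadjusted p = 0.0202, edgeR adjusted p = 0.140). That value stayed under the limit for a call in every fit, and its interval held 0 without OIR mouse 6 and without control mouse 7. Between OIR+32-134D and OIR the log2 fold change was -1.18 (SE 0.25, 95% confidence interval -1.76 to -0.61, unadjusted p = 0.00112, edgeR adjusted p = 0.838). The adjusted p was 0.00709 with DESeq2 on the 2 groups, 0.0161 with DESeq2 on all 9 mice and 0.287 with limma-voom. Fits without any 1 mouse gave log2 fold changes of -1.38 to -0.98. Cx3cr1 overlaps several genes, Gorasp1 and Csrnp1 on its own strand among them, so that reads in the shared stretches are uncertain.

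Fractalkine and its receptor can be set against each other within a mouse, where scaling between libraries plays no part. The ratio of Cx3cl1 to Cx3cr1, each per kilobase, was 5.66, 7.97 and 12.5 in control mice 1, 6 and 7. OIR mice 3, 5 and 6 stood at 2.55, 1.99 and 0.96, and OIR+32-134D mice 2, 5 and 10 at 2.86, 6.59 and 6.66. The ratio was lower in every OIR mouse than in any other mouse, and OIR mouse 6 had more receptor than ligand. Of the 17 microglial markers, 14 were lower in OIR+32-134D than in OIR (median log2 fold change -1.13, against 0.01 over all genes), 11 of them without overlap (9.13% over all genes), and 0 were called by edgeR, with 10 at an unadjusted p under 0.05 (4.69% over all genes). Their summed level was 337 to 648 CPM in OIR, 186 to 344 CPM in OIR+32-134D and 163 to 669 CPM in control mice, the highest of which was control mouse 1. The part of microglial number in the Cx3cr1 values was not tested.

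**Figure D3:**
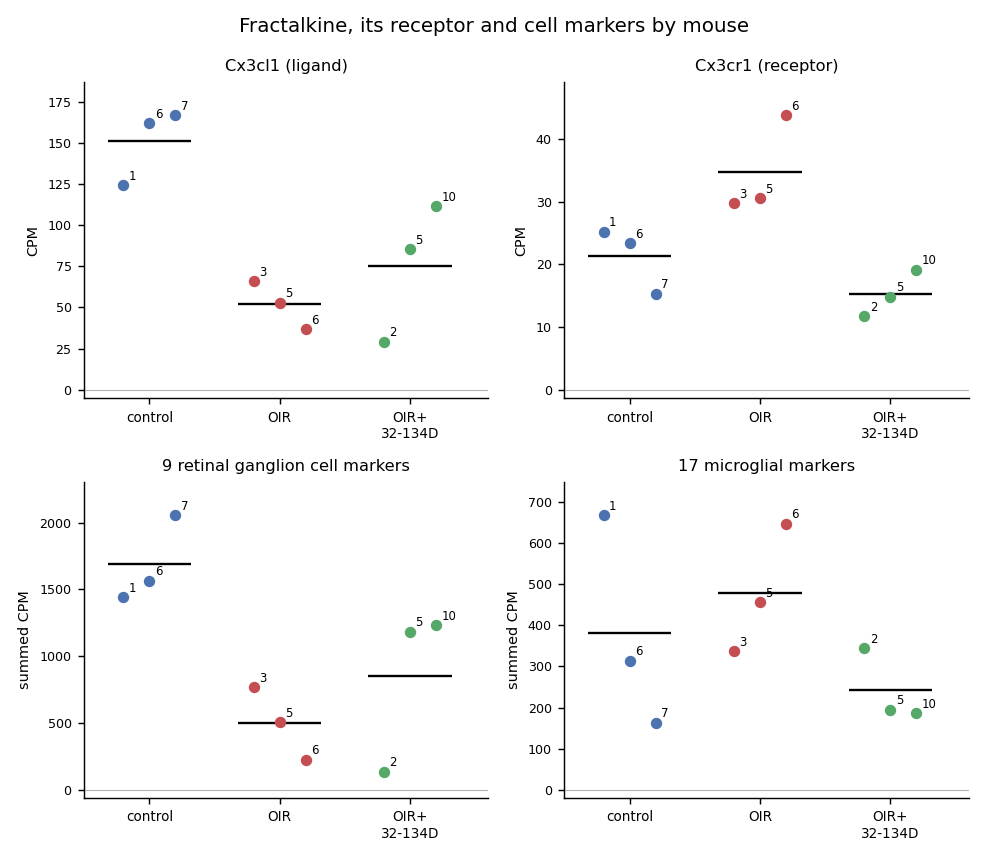
CPM of Cx3cl1 and of its receptor Cx3cr1, and summed CPM of 9 retinal ganglion cell markers and of 17 microglial markers, with 1 point per mouse labelled with its number and a bar at the group mean. Cx3cl1 and the ganglion cell sum share their lowest mouse in each group, OIR+32-134D mouse 2 among them at 29.2 and 133 CPM, and Cx3cr1 is highest in the 3 OIR mice.

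Cxcl12 (ENSMUSG00000061353, GRCm38 chromosome 6, 117168535 to 117181367, plus strand) encodes stromal cell-derived factor 1, which attracts and retains cells that carry Cxcr4. It had 33.6, 37.4 and 40.6 CPM in control mice 1, 6 and 7. The values were 25.5, 22.5 and 14.7 CPM in OIR mice 3, 5 and 6 and 18.6, 18.0 and 21.0 CPM in OIR+32-134D mice 2, 5 and 10. All 6 mice with OIR lay below all control mice. Unlike that of Cx3cl1, the value of mouse 2 lay between those of the other 2 OIR+32-134D mice. The log2 fold change against control was -0.83 for OIR (SE 0.19, unadjusted p = 0.00198, edgeR adjusted p = 0.0657) and -0.95 for OIR+32-134D (SE 0.20, unadjusted p = 0.000851, edgeR adjusted p = 0.102). The adjusted p was 0.00132 and 3.88e-05, respectively, with DESeq2 on the 2 groups and 0.0159 and 0.0187 with limma-voom, but the fold change stayed under the limit for a call. OIR+32-134D against OIR gave -0.12 (SE 0.19).

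Cxcr4 (ENSMUSG00000045382, GRCm38 chromosome 1, 128588199 to 128592293, minus strand) encodes the receptor of Cxcl12, a known target of HIF-1 and a gene of sprouting endothelial cells. It had 6.25, 2.48 and 2.71 CPM in control mice 1, 6 and 7. The values were 11.8, 6.43 and 7.87 CPM in OIR mice 3, 5 and 6 and 6.79, 12.1 and 8.12 CPM in OIR+32-134D mice 2, 5 and 10. All mice with OIR lay above all control mice, although control mouse 1 lay just below OIR mouse 5. The log2 fold change against control was 1.17 for OIR (SE 0.41, unadjusted p = 0.0184, edgeR adjusted p = 0.136) and 1.22 for OIR+32-134D (SE 0.41, unadjusted p = 0.0152, edgeR adjusted p = 0.192). For OIR it was 1.74 (edgeR adjusted p = 0.0142) without control mouse 1 and OIR+32-134D mouse 2, which passed the limits for a call. For OIR+32-134D against OIR it was 0.05 (SE 0.40), and it changed sign to -0.019 when scaled by total counts alone.

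The ratio of Cxcr4 to Cxcl12 within a mouse, per kilobase, was 0.841, 0.300 and 0.302 in control mice 1, 6 and 7. OIR mice 3, 5 and 6 stood at 2.09, 1.29 and 2.43, and OIR+32-134D mice 2, 5 and 10 at 1.65, 3.03 and 1.75. Every control mouse had more ligand than receptor mRNA per kilobase, and every mouse with OIR had more receptor. Which of the 2 is higher depends on the deposited gene lengths, 8176 bases for Cxcl12 and 1808 for Cxcr4. In counts Cxcl12 exceeded Cxcr4 in every mouse. The order of the mice by this ratio does not depend on the lengths. Markers of tip cells, the leading endothelial cells of a sprout, were also higher, with summed levels of 60.2 to 76.4 CPM in control, 120 to 167 CPM in OIR and 199 to 262 CPM in OIR+32-134D mice. Of the 8 tip cell markers, Apln, which encodes apelin, was called in OIR against control (log2 fold change 2.91, edgeR adjusted p = 0.0407) and in OIR+32-134D against control (3.79, edgeR adjusted p = 0.0490). The shares of all genes called were 0.302% and 0.0171%, respectively. Without overlap were 4 of the 8 in OIR and 7 in OIR+32-134D, both against control, where 33.0% and 25.0% of all genes did not overlap. Of the 10 endothelial markers, 6 were higher and 4 lower in OIR than in control mice. Their median log2 fold change was 0.029, against 0.034 over all genes, and 1 was without overlap, against 33.0% of all genes. The VEGF receptor gene Kdr alone was called (log2 fold change 1.10, edgeR adjusted p = 0.0407), where 0.302% of all genes were. The 10 summed to 262 to 274 CPM in control, 363 to 471 CPM in OIR and 304 to 464 CPM in OIR+32-134D mice. Whether the Cxcr4 values follow the number of such cells was not tested.

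**Figure D4:**
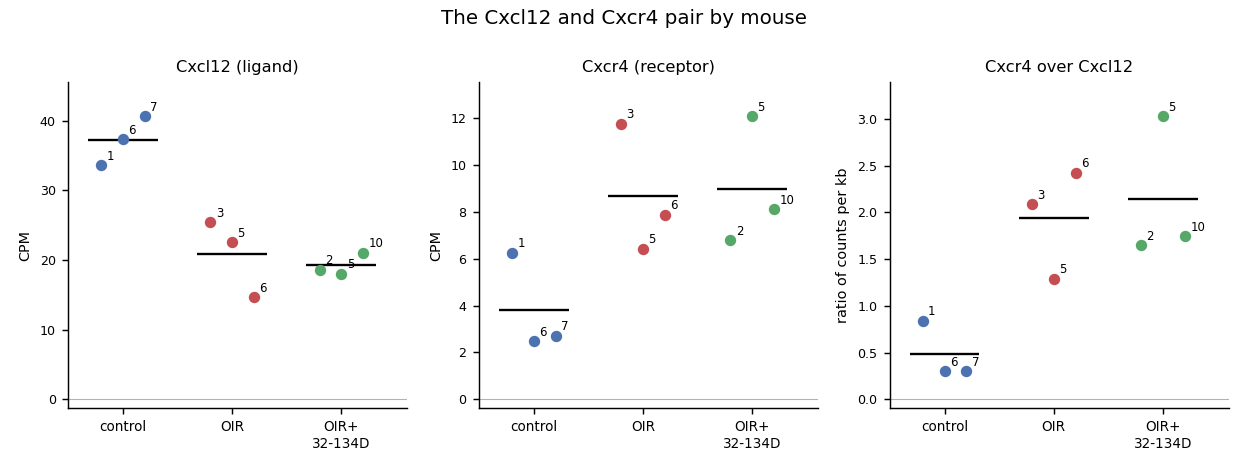
CPM of the ligand Cxcl12 and of the receptor Cxcr4, and the ratio of Cxcr4 to Cxcl12 counts per kilobase, with 1 point per mouse labelled with its number and a bar at the group mean. The ratio is at most 0.841 in control mice and at least 1.29 in the 6 mice with OIR.

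The pair is shown with the sequence before its transcription start because HIF binds a short core there in many of its targets and because 32-134D acts on HIF. The 250 bases before the RefSeq start (GRCm38.p6), 5′ to 3′ on the strand of the gene, were searched on both strands for the hypoxia response cores ACGTG and GCGTG. Capitals mark a match. Cxcr4 lies at chr1:128592300-128592549 (minus strand), with 1 match to GCGTG 39 to 35 bases before the start.
Cxcr4: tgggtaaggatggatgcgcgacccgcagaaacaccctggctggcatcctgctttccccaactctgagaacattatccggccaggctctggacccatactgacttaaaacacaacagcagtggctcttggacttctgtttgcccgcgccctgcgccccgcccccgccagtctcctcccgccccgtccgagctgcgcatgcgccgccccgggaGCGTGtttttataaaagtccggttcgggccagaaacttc
Cxcl12 lies at chr6:117168285-117168534 (plus strand), with no match to either core in this window.
Cxcl12: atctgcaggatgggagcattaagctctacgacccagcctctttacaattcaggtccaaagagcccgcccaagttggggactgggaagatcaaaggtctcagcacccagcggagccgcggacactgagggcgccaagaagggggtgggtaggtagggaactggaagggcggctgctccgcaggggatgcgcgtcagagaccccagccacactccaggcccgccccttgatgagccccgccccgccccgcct
Both promoters are rich in G and C, with 61.2% in Cxcr4 and 64.4% in Cxcl12. Of 32851 promoters of the same length, 16.6% hold ACGTG, 28.2% hold GCGTG and 38.6% hold at least 1 of them, so that a match is common. Among the 9 genes, 7 have a promoter in the RefSeq table used here (Ccl2 and Ccl4 do not), and 2 of these, Cxcr4 and Cxcl10, hold a core.

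Ccl2 and Ccl12, both on chromosome 11, and their receptor Ccr2 form the axis that draws monocytes out of the blood. Ccl2 (ENSMUSG00000035385, chromosome 11, 82035571 to 82037453, plus strand) and Ccl12 (ENSMUSG00000035352, chromosome 11, 82101845 to 82103400, plus strand) lie 64.4 kilobases apart. Ccl2 had 48, 27 and 0 counts in control mice 1, 6 and 7, 4, 10 and 22 counts in OIR mice 3, 5 and 6 and 99, 1 and 5 counts in OIR+32-134D mice 2, 5 and 10. The groups overlapped, and mouse 2 held nearly all counts of its group. The log2 fold change of OIR+32-134D against OIR was 1.94 (SE 1.47, edgeR adjusted p = 1.0) with all mice and -1.71 without mouse 2. Against control it was 1.07 with all mice and -2.61 without mouse 2, so that the direction was that of 1 library. For OIR against control it was -0.87 (SE 1.47, edgeR adjusted p = 0.762). Ccl2 overlaps Gm17268 on the opposite strand, which had 0 counts.

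Ccl12 had 26, 10 and 3 counts in control mice 1, 6 and 7, 7, 7 and 12 counts in OIR mice 3, 5 and 6 and 15, 8 and 8 counts in OIR+32-134D mice 2, 5 and 10. Its groups overlapped in all 3 comparisons, and the confidence intervals ran from -1.78 to 0.96 for OIR and from -1.21 to 1.51 for OIR+32-134D, both against control. At this depth no difference was detectable.

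Ccr2 (ENSMUSG00000049103, chromosome 9, 124101950 to 124113557, plus strand), which marks inflammatory monocytes, had 12, 1 and 0 counts in control mice 1, 6 and 7, 16, 20 and 50 counts in OIR mice 3, 5 and 6 and 27, 0 and 1 counts in OIR+32-134D mice 2, 5 and 10. The OIR mice lay above the control mice in CPM (0.856, 0.932 and 2.25 against 0.419, 0.050 and 0). A count of 0 in control mouse 7 allows up to 3 counts, or 0.178 CPM before TMM scaling. The log2 fold change of OIR against control was 2.87 (SE 1.39, unadjusted p = 0.0688, edgeR adjusted p = 0.246), 5.30 without control mouse 1 and OIR+32-134D mouse 2 (edgeR adjusted p = 0.0170), 2.97 with DESeq2 on the 2 groups (adjusted p = 0.0206) and 3.83 with limma-voom (adjusted p = 0.0290). The value without the 2 mice rests on 1 count in the remaining control mice. In OIR+32-134D the receptor was high in mouse 2 only, the mouse that also had the most Ccl2 and Ccl12 of its group. Against control the log2 fold change was 1.64 (SE 1.44) with all mice, -2.46 without mouse 2 and 4.08 without control mouse 1. Against OIR it was -1.22 (SE 1.27, edgeR adjusted p = 1.0) with all mice and -5.30 without mouse 2 (unadjusted p = 0.00531, edgeR adjusted p = 0.204), where 1 count remains in the treated mice. For the same comparison limma-voom gave -4.56 (unadjusted p = 0.000352, adjusted p = 0.287).

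Ccl3 (ENSMUSG00000000982, chromosome 11, 83647844 to 83649355, minus strand) and Ccl4 (ENSMUSG00000018930, chromosome 11, 83662584 to 83664683, plus strand) encode the macrophage inflammatory proteins 1-alpha and 1-beta, made by activated microglia and macrophages. They lie 13.2 kilobases apart on opposite strands. Ccl3 had 70, 6 and 3 counts in control mice 1, 6 and 7, 13, 24 and 62 counts in OIR mice 3, 5 and 6 and 17, 5 and 6 counts in OIR+32-134D mice 2, 5 and 10. Ccl4 had 35, 3 and 0, then 6, 9 and 11, then 3, 11 and 1 counts in the same mice. Control mouse 1 had the most counts of both genes, although in CPM OIR mouse 6 was above it for Ccl3 (2.79 against 2.44). The spread within the control group thus exceeded the distance between group means. For Ccl3 the log2 fold change was 0.59 for OIR (SE 0.93, edgeR adjusted p = 0.742) and -0.86 for OIR+32-134D (SE 0.99, edgeR adjusted p = 0.659), both against control, and -1.46 for OIR+32-134D against OIR (SE 0.99, unadjusted p = 0.175). Without control mouse 1 the value for OIR+32-134D against control turned to 1.14. For OIR against control it turned to -0.16 without OIR mouse 6, and it came to 2.60 without control mouse 1 (unadjusted p = 0.0190, edgeR adjusted p = 0.154) and to 2.59 without both control mouse 1 and OIR+32-134D mouse 2 (edgeR adjusted p = 0.0567). Without mouse 2 the value for OIR+32-134D against OIR was -2.28 (edgeR adjusted p = 0.453).

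Some genes of macrophages, named here after their values were seen, ran with Ccl3 across the mice. In the order used above, Lyz2 (lysozyme) had 387, 41.5 and 8.12 CPM in control, 90.6, 233 and 528 CPM in OIR and 85.9, 12.3 and 12.0 CPM in OIR+32-134D mice. Gpnmb, a gene of lipid-laden and phagocytic macrophages, had 679, 100 and 19.5, then 123, 285 and 354, then 113, 25.3 and 60.7 CPM. The mouse with the most Ccl3 in a group was the one with the most of both. The 13 markers of monocytes and macrophages summed to 80.1 to 2843 CPM in control, 322 to 1315 CPM in OIR and 80.1 to 464 CPM in OIR+32-134D mice. Of the 11 tested, 10 were lower in OIR+32-134D than in OIR (median log2 fold change -1.40, against 0.01 over all genes). Of these, 4 were without overlap, against 9.13% of all genes. By edgeR 0 were called (0.00% of all genes), with 0 at an unadjusted p under 0.05, against 4.69% of all genes. The part of these cells in the Ccl3 values was not tested.

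Cxcl10 (ENSMUSG00000034855, chromosome 5, 92346638 to 92348889, minus strand) encodes the interferon-inducible protein that attracts activated T cells and is known to halt vessel growth. It had 22, 13 and 13 counts in control mice 1, 6 and 7, 8, 16 and 4 counts in OIR mice 3, 5 and 6 and 14, 1 and 0 counts in OIR+32-134D mice 2, 5 and 10. Control mice were close to each other (0.750 ± 0.098 CPM, SD, n = 3), and each of the other groups held 1 mouse at the control level. The log2 fold change against control was -0.72 for OIR (SE 0.98) and -1.28 for OIR+32-134D (SE 1.04, edgeR adjusted p = 0.528). For the latter limma-voom, which gives less weight to mice that stand apart, gave -3.26 (adjusted p = 0.0403), and edgeR without mouse 2 gave -4.45 (unadjusted p = 0.00272, edgeR adjusted p = 0.165). Against OIR the value was -0.55 (SE 1.07) with all mice and -3.70 without mouse 2 (unadjusted p = 0.00937, edgeR adjusted p = 0.228). Without mouse 2, the treated mice hold 1 count of Cxcl10. Cxcl10 lies within Art3 on the opposite strand, which had 418 counts against its 91, so that without strand its reads could be those of either gene.

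The promoter of Cxcl10 is shown because inflammation and interferon are known to act on this gene through elements near its start. In the 250 bases before the RefSeq start, at chr5:92348890-92349139 (GRCm38.p6, minus strand), a search of both strands found 1 match to the core of the interferon-stimulated response element (GAAA, any 2 bases, GAAA) and 2 matches to NF-κB, besides 1 match to GCGTG read on the other strand. Capitals mark these 4 matches.
Cxcl10: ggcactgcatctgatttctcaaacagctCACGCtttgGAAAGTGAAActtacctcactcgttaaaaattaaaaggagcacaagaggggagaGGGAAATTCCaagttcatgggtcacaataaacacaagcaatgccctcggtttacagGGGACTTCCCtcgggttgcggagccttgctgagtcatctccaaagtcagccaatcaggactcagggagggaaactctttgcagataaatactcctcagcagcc
Of all promoters of this length, 2.98% hold the interferon core and 3.90% hold an NF-κB match. None of the other 6 promoters searched held either. Of 16 tested genes of the interferon response, 15 were lower in OIR+32-134D than in OIR (median log2 fold change -0.60), and 0 were called by edgeR, with 2 lower and 1 higher at an unadjusted p under 0.05, against 4.69% of all genes. Among the most abundant, Oasl2 averaged 27.4 CPM in OIR and 14.8 CPM in OIR+32-134D mice.

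The rest of the chemokine system was measured in the same libraries. Of 38 ligands and 23 receptors listed, 17 and 14 passed the filter, and 9 of the 61 genes had 0 counts in all mice (Ccl19, Ccl20, Ccl21a, Cxcl15, Xcl1, Ccr3, Ccr4, Ccr8 and Cxcr5). In OIR against control, 12 of the 17 ligands were lower (median log2 fold change -0.41, against 0.03 over all genes), 5 of them at an unadjusted p under 0.05. In the same comparison 12 of the 14 receptors were higher (median 0.66), 2 of them at that level, which 23.8% of all genes reached in either direction. The 23 receptors listed nonetheless summed to less in OIR (127 to 137 CPM) than in control mice (144 to 162 CPM). Ackr1, the most abundant, had 112, 102 and 115 CPM in control mice 1, 6 and 7. It had 67.8, 72.2 and 51.1 CPM in OIR mice 3, 5 and 6. In OIR+32-134D against OIR, 11 of the 14 receptors were lower (median -0.34) and the ligands were balanced (median 0.02). Some of the receptors, Ccr2 and Xcr1 among them, would not have passed the filter without their counts in OIR mice. The same holds for some ligands, Cxcl10, Ccl17 and Cxcl13 among them, and control mice. These counts of directions are thus partly set by the filter and are no support for a difference. None of the 31 was called by edgeR in any comparison.

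Among the other ligands with separate groups, Ccl17, which attracts T helper cells, had 41, 13 and 22 counts in control mice 1, 6 and 7 and 3, 3 and 2 counts in OIR mice 3, 5 and 6. Like Cxcl13 below, it would not have passed the filter without its counts in control mice, so that its higher level there is no support for a difference. Its log2 fold change was -3.11 (SE 0.86, edgeR adjusted p = 0.0896, and 0.0103 without OIR+32-134D mouse 2). The B cell attractant Cxcl13 gave -2.34 (SE 0.78, edgeR adjusted p = 0.124). Cxcl14, the most abundant of the 3, had 107, 98.3 and 140 CPM in control mice 1, 6 and 7 and 53.6, 47.7 and 48.1 CPM in OIR mice 3, 5 and 6 (log2 fold change -1.21, SE 0.45, edgeR adjusted p = 0.154, and 0.00361 without OIR+32-134D mouse 2). In OIR+32-134D mice 2, 5 and 10 Cxcl14 had 18.3, 76.0 and 90.0 CPM, with mouse 2 lowest as for Cx3cl1. Against control, the largest differences of OIR+32-134D without overlap were in Ccl17 (-1.84, SE 0.79), the scavenging receptor Ackr2 (1.32, SE 0.45) and Ackr1 (-0.94, SE 0.28), whose edgeR adjusted p were 0.255, 0.195 and 0.167. Ackr1 overlaps the abundant neuronal gene Cadm3 on the same strand, so that its counts are uncertain. Between OIR+32-134D and OIR only Cx3cr1, described above, and Xcr1 (-1.07, SE 0.74, 2 to 8 counts per treated mouse) had separate groups. Xcr1 would not have passed the filter without its counts in OIR mice, so that its higher level there is no support for a difference.

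**Figure D5:**
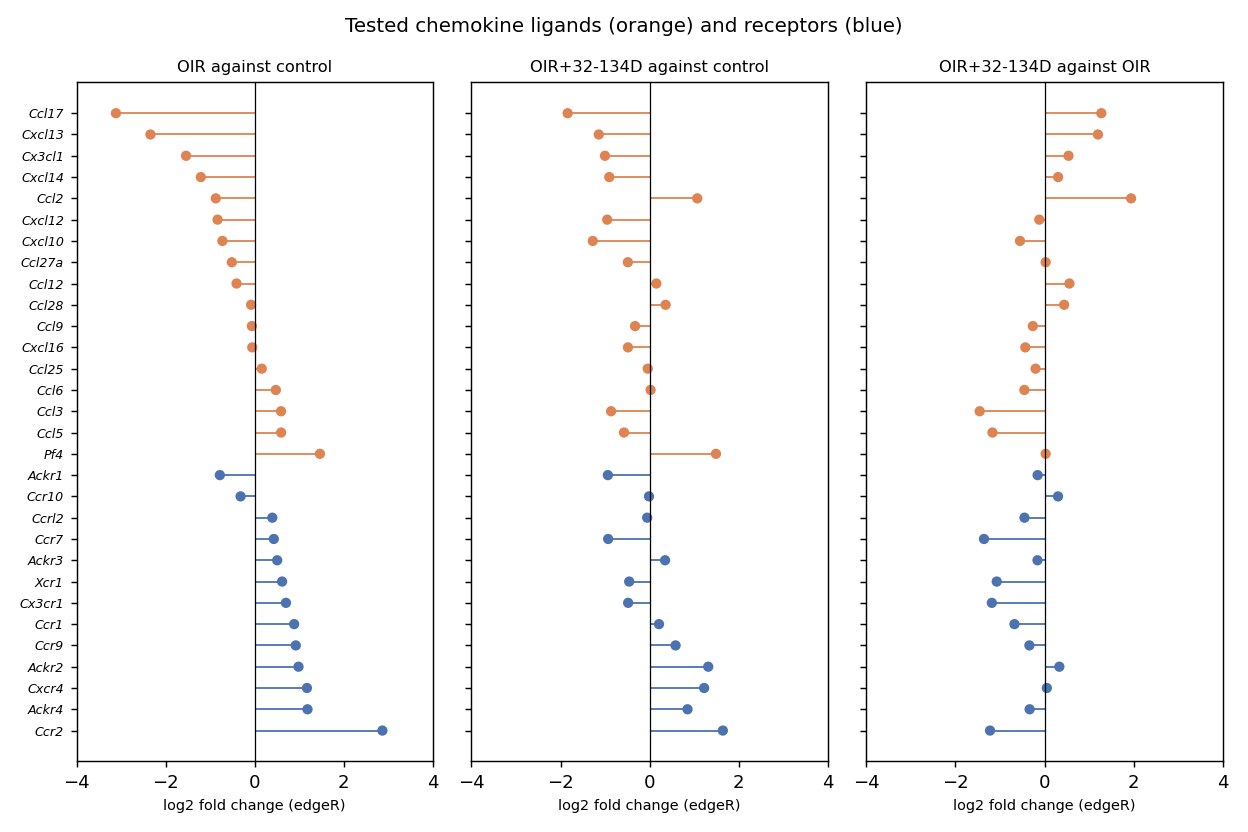
Log2 fold change of 30 of the 31 tested chemokine genes in the 3 comparisons, with ligands in orange and receptors in blue, each ordered by OIR against control. In that comparison 12 of 17 ligands lie below 0 and most receptors above it, and in OIR+32-134D against OIR most receptors lie below 0. Some of these genes passed the filter only through the group where they are higher.

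Leukocytes that these chemokines recruit must also adhere to the vessel wall. Of 13 tested adhesion genes, 11 were higher in OIR than in control mice (median log2 fold change 0.36), and 0 were called by edgeR, with 2 at an unadjusted p under 0.05, against 23.8% of all genes. One was Itga4, the alpha chain of the integrin that binds VCAM-1, with 37.5, 35.7 and 24.3 CPM in control mice 1, 6 and 7 and 66.5, 98.6 and 77.1 CPM in OIR mice 3, 5 and 6 (log2 fold change 1.31, SE 0.28, edgeR adjusted p = 0.0599). In OIR+32-134D mice 2, 5 and 10 it had 116, 63.7 and 62.2 CPM. Itga4 overlaps Cerkl on the opposite strand. The other was Vcam1, named here after its values were seen, at 23.3 ± 6.8 CPM in control, 47.6 ± 21.8 in OIR and 25.1 ± 6.2 in OIR+32-134D mice (SD, n = 3). Its log2 fold change was 1.03 for OIR against control (SE 0.34, edgeR adjusted p = 0.120) and -0.92 for OIR+32-134D against OIR (SE 0.33, edgeR adjusted p = 1.0). Of 10 tested inflammatory cytokine and NF-κB feedback genes, 8 were higher in OIR than in control mice (median log2 fold change 0.39, against 0.03 over all genes). By edgeR 0 were called, against 0.302% of all genes, with 1 at an unadjusted p under 0.05, against 23.8% of all genes. Il6 had 0 counts in every mouse.

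Markers of blood leukocytes were scarce. The 10 neutrophil markers summed to 0.297 to 3.28 CPM in control, 3.80 to 10.3 CPM in OIR and 0.257 to 2.66 CPM in OIR+32-134D mice, with Mpo at 0 throughout, and only S100a8, S100a9 and Mmp8 passed the filter. S100a8, part of calprotectin, was separate between OIR and control mice (log2 fold change 3.72, SE 1.13, edgeR adjusted p = 0.106). It would not have passed the filter without its counts in OIR mice, so that its higher level there is no support for a difference. The 12 lymphocyte markers summed to 3.48 to 6.58 CPM in any mouse, with Cd3d and Ncr1 at 0. Most of this sum was Cd8a in every mouse, at 2.53 to 5.13 CPM. Cd3e and Cd3g had at most 4 and 6 counts in a mouse, so that the sum is a poor measure of lymphocytes. Genes of red blood cells summed to 74.6 to 133 CPM in control, 9.45 to 58.1 CPM in OIR and 53.8 to 169 CPM in OIR+32-134D mice. The part of blood cells in the Ccr2 values was not tested.

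The genes whose log2 CPM followed each of the 8 tested genes most closely over the 9 mice were picked from 13977 or 13978 candidates, so that a high Pearson r is a description of rank alone. For Cx3cl1 they were Arhgap44 (r = 0.998) and Rab15 (r = 0.997), both expressed in neurons. Cxcl12 went with Clstn3 and B330016D10Rik, each at an r of 0.973 and 0.972, and Cxcr4 with Zfyve16 (0.970) and F8 (0.955). Ccl3 went with Cyba (0.981), a subunit of the phagocyte oxidase, and the lysosomal protease gene Ctsz (0.980), and Ccr2 with Itgb5 (0.968) and Mmp19 (0.964). The r was 0.959 for Ccl2 with Tmem161a, 0.953 for Ccl12 with Sgcb and 0.941 for Cxcl10 with Fancl, for genes whose counts often lay under 20. All 9 mice share the group structure and the libraries that stand apart, and the r for Cx3cl1 with Arhgap44 was 0.997 without OIR+32-134D mouse 2.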

How the data were processed

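The authors deposited raw counts per gene, as whole numbers with no normalization, for retina of 9 mice in 3 groups of 3, with a gene length for each gene. CASAVA and HISAT are named in the submitters' processing notes, without versions. The counting tool, annotation and use of strand are not given in the sources used here. Coordinates are on GRCm38, since 98.3% of the 54495 identifiers that GENCODE M21 also lists sit at identical positions in it. Libraries held 16028731 to 27213184 counts. At this depth counting error is small for Cx3cl1, Cxcl12 and Cxcr4 and large for the other 6 genes.

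The test was that of edgeR 4.0.16 under R 4.3.3 (TMM, default filter by group, quasi-likelihood test, 17540 genes, all 9 mice, 3 comparisons). Each mouse is 1 replicate. Log2 CPM used a prior count of 2. Floors of 3 counts cover counting error only. Alternatives were DESeq2 1.42.0 and edgeR on all mice or the 2 groups, DESeq2's size factors, total counts alone, no filter, an adjusted p alone, voom with quality weights for each sample in limma 3.58.1, and dropping 1 mouse at a time. Tables were made in Python 3.11.15 with pandas 2.3.3 and numpy 2.4.6, and plots with matplotlib 3.10.9. Promoters are from RefSeq (GRCm38.p6).

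The genes and lists were chosen with earlier results of these data known. Named are the 9 genes, the 3 other chemokine genes with the largest difference among those without overlap in each comparison, the 2 genes most correlated with each tested member among those with a mean log2 CPM of at least 1, and, of each list, up to 4 abundant or called genes. Macrophage and neutrophil genes beside Ccl3 and Ccr2, and Vcam1, were added after their values were seen. Some genes are counted in their lists but not reported here by name.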

Additional observations from a re-analysis of the deposited data

How the results depend on the processing

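For OIR against control, the number of the 9 genes called, 0 with edgeR over all 9 mice, was 1 without the filter, 2 with DESeq2 on all mice, 3 with DESeq2 on the 2 groups, 1 with edgeR on the 2 groups, 3 with limma-voom and 3 without control mouse 1 and OIR+32-134D mouse 2 (chosen after seeing the data). In the same order the number of chemokine genes called was 1, 3, 6, 4, 4 and 5, against 0, and that of all genes 260, 718, 1016, 771, 822 and 1162, against 53. All genes came to 165 with an adjusted p alone and 14 with total counts alone. Leaving out each mouse gave 0 to 1 of the 9 genes, 0 to 4 chemokine genes and 0 to 901 of all genes, with the highest values without OIR+32-134D mouse 2. For OIR+32-134D against control, limma-voom called 2 of the 9 genes and 3 chemokine genes, against 0, and all genes, 3 at first, were 0 with DESeq2's size factors, 13 without the filter, 179 and 125 with DESeq2 on all mice and on the 2 groups, 0 with edgeR on the 2 groups, 184 with limma-voom and 0 to 6 when each mouse was left out. For OIR+32-134D against OIR, both DESeq2 fits called 1 chemokine gene, Cx3cr1, and all genes, 0 at first, were 1 without the filter, 18 and 58 with DESeq2 and 1 with limma-voom. The cause of these differences was not tested.

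Directions of the scarce genes turned with single libraries. Those of the abundant Cxcl12 and Cxcr4 also turned between OIR+32-134D and OIR, where their log2 fold changes over all mice were -0.12 and 0.05. Leaving out each mouse gave log2 fold changes of -0.16 to 2.60 for Ccl3 and -0.76 to 0.23 for Ccl12 in OIR against control. For OIR+32-134D and control they were -2.61 to 1.64 for Ccl2, -1.72 to 1.14 for Ccl3, -0.29 to 0.79 for Ccl12 and -2.46 to 4.08 for Ccr2. For OIR+32-134D and OIR they were -1.71 to 2.64 for Ccl2, -3.70 to 0.066 for Cxcl10, -0.32 to 0.050 for Cxcl12 and -0.22 to 0.33 for Cxcr4. Values for OIR+32-134D against control also turned for Ccl2 (-2.30 with limma-voom, -2.02 without both mice), Ccl3 (0.31 without both mice) and Ccr2 (-0.73 with limma-voom). Against OIR they turned for Ccl2 (-1.53 with limma-voom, -1.71 without both mice) and Cxcr4 (-0.019 with total counts alone). Cx3cl1, Cxcl12 and Cxcr4 kept their direction against control in every alternative. No paired analysis was possible because the groups compared share at most 1 replicate number, and these name separate animals. With 3 mice a group, the spread between mice limits the abundant genes, and counts often under 20 limit the other 6.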
